A study of Homo sapiens with 18 samples.

Results

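A set of 9 genes of the transcription elongation machinery were followed: the elongation factors ELL, ELL2 and ELL3, their partners EAF1 and EAF2, the scaffolds AFF1 and AFF4, and CDK9 and CCNT1, the kinase and cyclin subunits of P-TEFb. They were found as the probe sets to which the platform annotation gives one of these symbols and no other, which were 29 of 54675 probe sets on the array and 9 of 19775 genes. Expression had been measured on 18 one-colour Affymetrix arrays of total RNA in 6 groups of 3. The groups were LNCaP-abl cells with TRIM24 siRNA and vehicle, LNCaP-abl with control siRNA and vehicle, LNCaP with TRIM24 siRNA and 10 nM dihydrotestosterone (DHT), LNCaP with control siRNA and DHT, LNCaP with TRIM24 siRNA and vehicle, and LNCaP with control siRNA and vehicle. Every group was transfected for 48 h and treated for 24 h, in a design with culture in serum stripped of hormone with charcoal and dextran; the vehicle was ethanol. The culture protocol names LNCaP only, so the culture of LNCaP-abl is less certain. LNCaP is a human prostate cancer line that responds to androgen, and LNCaP-abl is a line derived from it that grows without androgen, so any difference between the lines is a difference between these particular cultures. TRIM24 is a chromatin reader and cofactor of nuclear receptors, and DHT is the active androgen.

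RNA polymerase II pauses shortly after it starts on many genes. P-TEFb releases it by phosphorylating the polymerase and the pausing factors, and the super elongation complex brings P-TEFb together with an ELL protein on a scaffold of AFF1 or AFF4. ELL proteins keep the polymerase from stalling as it moves, and EAF proteins bind ELL proteins and raise their activity. EAF2 is known in prostate as an androgen-induced gene with tumour-suppressing activity in mice, and ELL2 as an androgen-responsive gene.

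Each gene is given by the brightest of its probe sets, in log2 units of the values the authors deposited, and brightness is not set against that of another gene. All 9 genes passed the filter on low values, a value of at least 5.88, the table's median, on at least 3 arrays, as did 21 of their 29 probe sets. Tests are two-sided and from limma, a linear model with variances shared across genes, fitted to all 18 arrays and 13607 genes with Benjamini-Hochberg adjustment. A change is called at an adjusted p under 0.05. The number of arrays, 3 in a group, limits the precision, and the labels do not say that replicates were separate cultures, so p-values speak only to the variation among these arrays, possibly technical. In bulk RNA, fewer cells that express a gene and less RNA per cell cannot be told apart.

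Arrays of one group correlated at 0.9963 to 0.9983 over probe sets, which are not independent, no pair was identical, and array medians lay between 5.83 and 5.93. TRIM24 read 7.69 to 7.73 with its siRNA, against 9.69 to 9.71 with control siRNA, in LNCaP with vehicle. It read 7.89 to 8.09 against 10.12 to 10.17 with DHT, and 7.35 to 7.55 against 9.44 to 9.60 in LNCaP-abl. The luminal prostate markers KRT8, KRT18 and HOXB13 had group means of 9.72 to 13.2, and KLK3 between 5.7 and 14.12. Of the leukocyte markers, PTPRC and MS4A1 stayed at group means of at most 4.29, and CD79A lay between 6.38 and 6.65. Of the fibroblast markers COL1A1 had group means of 7.24 to 7.49, COL3A1 of 4.58 to 6.67 and DCN of 5.8 to 6, and of the neuroendocrine markers SYP had 6.24 to 6.36 and CHGA at most 5.14. The part of other cell types in the results was not tested. The GAPDH control's 3' minus 5' log2 signal, a measure of RNA integrity, was higher with TRIM24 siRNA in each setting. It averaged 0.64 ± 0.02 against 0.56 ± 0.01 in LNCaP-abl, 0.63 ± 0.01 against 0.56 ± 0.01 in LNCaP with DHT, and 0.59 ± 0.02 against 0.52 ± 0.03 in LNCaP with vehicle (SD, n = 3 each). The ACTB control's signal was also higher with TRIM24 siRNA, at 1.99 ± 0.09 against 1.87 ± 0.09, 2.19 ± 0.07 against 1.85 ± 0.09 and 2.05 ± 0.07 against 1.87 ± 0.06 in the same order. Values with the GAPDH signal as a covariate stand beside the members' called knockdown changes. In each setting this signal differed between siRNAs by more than it varied within groups, so the fit separates it poorly from the knockdown. A call kept or lost with the covariate therefore does not show the part of RNA integrity, which was not tested.

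ELL2, which had the widest range of the ELL family, was higher with DHT, lower with TRIM24 siRNA and lower in LNCaP-abl. In LNCaP with control siRNA its arrays read 11.89, 11.95 and 12.10 with DHT, against 10.44, 10.47 and 10.14 with vehicle. DHT raised it by 1.63 ± 0.08 on the log2 scale, 3.1-fold (SE, n = 3 per group, limma adjusted p = 1.05e-10). In LNCaP with TRIM24 siRNA it read 10.97, 10.93 and 10.88 with DHT, against 9.46, 9.41 and 9.35 with vehicle, a rise of 1.52 ± 0.08. The arrays with DHT lay above those with vehicle under either siRNA, without overlap.

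TRIM24 siRNA lowered ELL2, by its brightest probe set, by similar amounts on the log2 scale in each setting. It was at -0.94 ± 0.08 in vehicle-treated LNCaP, -1.06 ± 0.08 in DHT-treated LNCaP and -0.92 ± 0.08 in LNCaP-abl (SE, n = 3 per group; limma adjusted p of 1.62e-07, 4.37e-08 and 2.11e-07). LNCaP-abl arrays read 7.66, 7.64 and 7.56 with TRIM24 siRNA, against 8.39, 8.65 and 8.56 with control siRNA. With the GAPDH 3' to 5' signal as a covariate the changes were -0.76, -0.85 and -0.70, and all 3 kept their calls. The test of a difference between settings was not passed: the knockdown effect with DHT minus that with vehicle was -0.11, with a 95% interval of -0.36 to 0.14 (limma adjusted p = 0.596), and that in LNCaP-abl minus that in LNCaP was 0.03, with an interval of -0.22 to 0.27 (limma adjusted p = 0.894).

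ELL2 was also lower in LNCaP-abl than in LNCaP. With control siRNA, LNCaP-abl arrays averaged 8.53 ± 0.13, against 10.35 ± 0.18 in LNCaP with vehicle (SD, n = 3 each), a difference of -1.82 ± 0.08 or 3.52-fold lower in LNCaP-abl (limma adjusted p = 9.12e-12). Against LNCaP with DHT the difference was -3.45 ± 0.08, or 10.9-fold. The 6 group means ran from 11.98 in LNCaP with control siRNA and DHT through 10.93 with TRIM24 siRNA and DHT, 10.35 with control siRNA and vehicle, 9.41 with TRIM24 siRNA and vehicle and 8.53 in LNCaP-abl with control siRNA to 7.62 in LNCaP-abl with TRIM24 siRNA. No neighbours in this order overlapped on any array. The highest mean was 20.6 times the lowest.

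Of the 4 ELL2 probe sets 3 passed the filter, and each gave the same directions. For DHT with control siRNA they gave 1.53, 1.63 and 1.85, and for TRIM24 siRNA in LNCaP with vehicle -0.87, -0.94 and -0.75. For LNCaP-abl against LNCaP with vehicle, 214446_at and 226099_at gave -1.61 and -1.82, while 226982_at read 6.47 to 6.57 in LNCaP-abl, against 6.58 to 6.64 in LNCaP, and was not called. The fourth probe set stayed between 3.66 and 4.36 on every array. With all 4 averaged, ELL2 was at 1.34 for DHT, at -0.62 for knockdown with vehicle and at -0.87 for LNCaP-abl against LNCaP, so the sizes depend on the probe set. Probe set 226982_at gave a larger fall with knockdown under DHT than with vehicle, at -0.39 ± 0.09 (limma over probe sets, adjusted p = 0.0126), and the average of the 4 did so too, at -0.24 (adjusted p = 0.0142). In LNCaP with TRIM24 siRNA and vehicle, however, 226982_at read 6.02, 5.73 and 5.84, around the filter's 5.88. Probe set 214446_at, at 6.14 to 8.72 on the LNCaP arrays, had the same direction. Its difference was -0.30 ± 0.11 and was not called (limma over probe sets, adjusted p = 0.108). Probe set 214446_at alone gave a smaller fall in LNCaP-abl than in LNCaP with vehicle, at 0.36 ± 0.11 (adjusted p = 0.0229), but all its LNCaP-abl arrays, at 4.88 to 5.58, lay below 5.88.

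**Figure D1:**
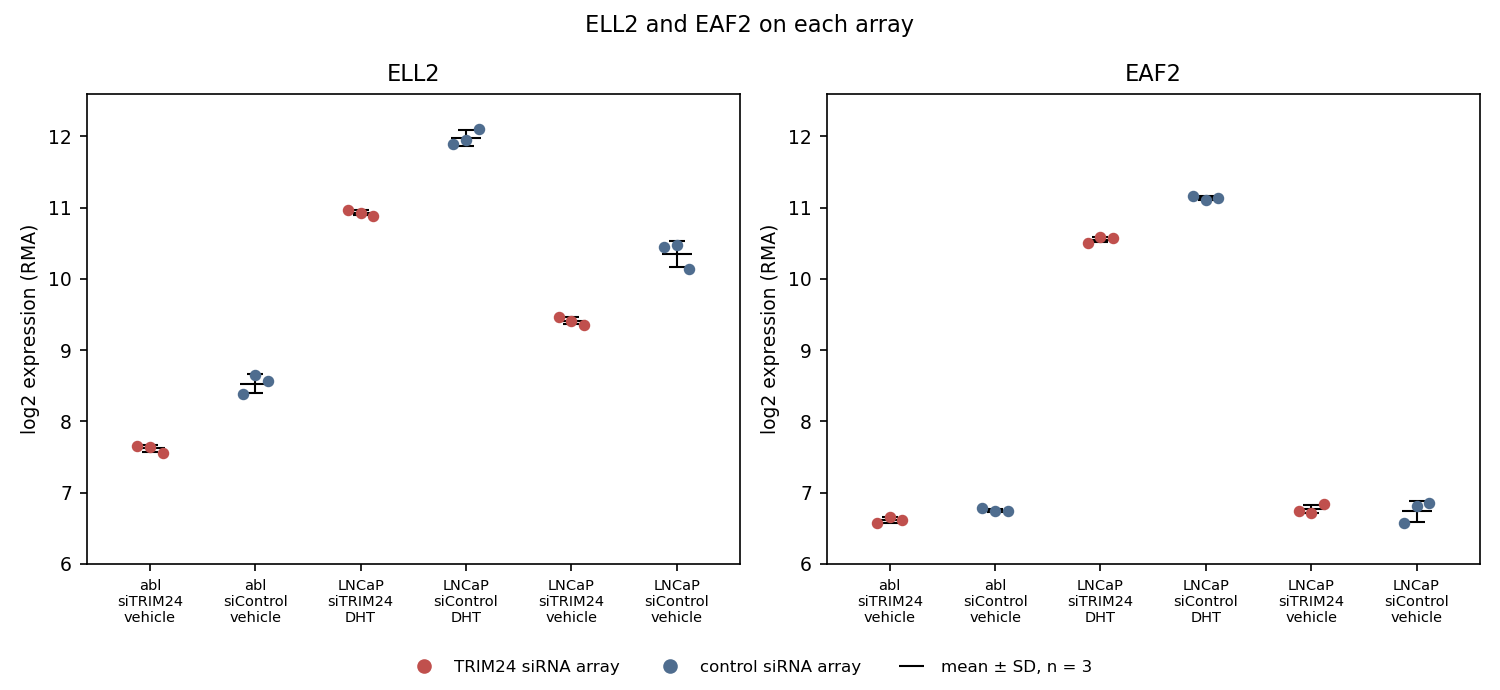
Log2 expression of ELL2 (left) and EAF2 (right) on each of the 18 arrays, by group, with points for arrays and bars for mean ± SD of 3 arrays. ELL2 forms 6 separate levels between 7.56 and 12.10, whereas EAF2 lies at 10.50 to 11.16 in both DHT groups and at 6.57 to 6.86 in the other 4.

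EAF2, which binds ELL proteins, was low without DHT and rose strongly with it. With control siRNA its arrays read 11.16, 11.10 and 11.14 with DHT, against 6.57, 6.81 and 6.86 with vehicle. The rise was 4.39 ± 0.06 on the log2 scale, 20.9-fold (SE, n = 3 per group, limma adjusted p = 1.21e-17). With TRIM24 siRNA it read 10.50, 10.58 and 10.57 with DHT, against 6.75, 6.72 and 6.84 with vehicle, a rise of 3.78 ± 0.06 or 13.8-fold. The DHT arrays of either siRNA lay more than 3 log2 units above every array without DHT.

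TRIM24 siRNA changed EAF2 in the presence of DHT, where it fell by 0.58 ± 0.06 (limma adjusted p = 8.11e-07), and by 0.73 with the GAPDH covariate. In LNCaP with vehicle the change was 0.02 ± 0.06 (limma adjusted p = 0.788), and in LNCaP-abl -0.13 ± 0.06 (limma adjusted p = 0.0726; 6.57, 6.66 and 6.62 with TRIM24 siRNA, against 6.78, 6.74 and 6.74 with control siRNA). The difference between the effects with DHT and with vehicle was itself called, at -0.60 ± 0.08 (limma adjusted p = 0.00027), and was -0.62 with the GAPDH 3' to 5' covariate. In LNCaP-abl that covariate moved the change to -0.30 (limma adjusted p = 0.0257), median centring to -0.17 (adjusted p = 0.0209), and without either of 2 control arrays of LNCaP with vehicle it was called at -0.13, with adjusted p-values of 0.0114 without the first and 0.0458 without the third. LNCaP-abl with control siRNA differed from LNCaP with vehicle by 0.01 ± 0.06, with an interval of -0.11 to 0.14. The 4 groups without DHT had means between 6.62 and 6.77, and neighbours among them overlapped. These means lay not far above the filter's 5.88, where low signal limits how far a fall could show. The part of low signal in the difference between the effects with DHT and with vehicle was not tested.

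A single EAF2 probe set of 3 carried this pattern. The other two read 2.64 to 3.51 on all arrays. They failed the filter, and averaged with the bright one they took the gene below it as well.

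EAF1, the paralog of EAF2, varied less than EAF2, with group means from 8.65 to 9.32. It read 9.34, 9.26 and 9.36 with DHT, against 9.17, 9.14 and 9.09 with vehicle, in LNCaP with control siRNA, a rise of 0.19 ± 0.05 (limma adjusted p = 0.0106). With TRIM24 siRNA the DHT effect was 0.02 ± 0.05. Knockdown lowered EAF1 by 0.29 ± 0.05 in LNCaP with DHT (limma adjusted p = 0.000479; 9.04, 9.04 and 9.02 against 9.34, 9.26 and 9.36) and by 0.32 ± 0.05 in LNCaP-abl (limma adjusted p = 0.000156; 8.6, 8.71 and 8.64 against 8.83, 9.10 and 8.99). These arrays did not overlap, and with the GAPDH covariate the changes were -0.31 and -0.35, both called (limma adjusted p of 0.0247 and 0.0181). In LNCaP with vehicle it was at -0.12 ± 0.05 (limma adjusted p = 0.0966), which was called without the first or the second control array of LNCaP-abl, at adjusted p-values of 0.0336 and 0.0459. LNCaP-abl was lower than LNCaP with vehicle by 0.16 ± 0.05 (limma adjusted p = 0.0179), with overlapping arrays. That call was lost without the first control array of LNCaP-abl, at -0.09 (adjusted p = 0.117), and without the first control array of LNCaP with vehicle, at -0.14 (adjusted p = 0.063).

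The upstream sequences of this paralog pair are shown because EAF2 rose 20.9-fold and EAF1 1.14-fold with the same hormone. They are the 250 bases before each annotated start, read 5' to 3' on the gene's strand, from RefSeq, build GRCh38.p14. Capitals mark GC boxes, GGGCGG on either strand.
EAF2, chr3:121834959-121835208, plus strand: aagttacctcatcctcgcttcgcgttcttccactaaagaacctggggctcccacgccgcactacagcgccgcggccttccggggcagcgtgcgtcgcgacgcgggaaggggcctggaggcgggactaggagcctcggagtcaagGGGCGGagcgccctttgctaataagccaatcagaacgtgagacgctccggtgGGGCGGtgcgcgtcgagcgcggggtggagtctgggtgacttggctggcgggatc
EAF1, chr3:15427348-15427597, plus strand: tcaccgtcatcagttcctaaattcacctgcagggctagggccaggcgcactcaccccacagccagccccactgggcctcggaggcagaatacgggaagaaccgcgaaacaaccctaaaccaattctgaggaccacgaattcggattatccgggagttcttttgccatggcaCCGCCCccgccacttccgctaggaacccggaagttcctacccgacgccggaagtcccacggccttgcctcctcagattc
The EAF2 stretch was 66.8% G and C and held 2 GC boxes, and the EAF1 stretch was 59.6% and held 1; the median over all promoters was 58%. The table matched 8 of the 9 genes, all but ELL2. All 8 held at least 1 GC box, against 42.3% of 27305 promoters. All 8 were also above that median in G and C, at 59.2% to 82%. GC boxes were not compared with those of promoters of like G and C content. The full androgen response element (AGAACA and its inverted copy TGTTCT with 3 bases between them) was found in none of the 8 and in 1 of the 27305. Its half-site AGAACA, on either strand and part of the full element, was in none of the 8 and in 12.4% of all, and the TATA box TATAAA in none of the 8 and in 11.1%. These letters are a description of a short window, and response elements can lie far outside it.

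ELL and ELL3, the other elongation factors of the family, differed less. ELL read 7.41, 7.40 and 7.36 with DHT, against 7.21, 7.25 and 7.10 with vehicle, in LNCaP with control siRNA, a rise of 0.20 ± 0.08 (limma adjusted p = 0.0438). This call was lost without any one of 8 arrays, up to an adjusted p of 0.164 without the third control array with vehicle, and a second ELL probe set of similar brightness, 204095_s_at, was at -0.09 ± 0.12. With knockdown ELL was at -0.01, -0.10 and -0.13 in vehicle-treated LNCaP, DHT-treated LNCaP and LNCaP-abl, each ± 0.08 and not called; without the third knockdown array with DHT the second of these was -0.20 (adjusted p = 0.0392). All neighbours in the order of its group means, 7.03 to 7.39, overlapped.

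ELL3 separated the cell lines. With control siRNA it read 8.85, 8.95 and 8.84 in LNCaP-abl, against 9.42, 9.34 and 9.31 in LNCaP with vehicle, a difference of -0.48 ± 0.05 (limma adjusted p = 9.34e-07). Its other probe set, 219518_s_at, gave -0.50 ± 0.04. DHT changed it by 0.02 ± 0.05 with control siRNA and by 0.09 ± 0.05 with TRIM24 siRNA, neither called, and the 4 LNCaP groups lay between 9.34 and 9.43. With knockdown in LNCaP-abl it was lower by 0.14 ± 0.05 at an adjusted p of 0.0481 (limma), a call lost without any one of 14 of the 18 arrays. The adjusted p reached 0.184 without the second control array of LNCaP-abl. The call was also lost with the GAPDH covariate, at -0.09 (adjusted p = 0.556), and with quantile normalization, at -0.04 (adjusted p = 0.494).

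**Figure D2:**
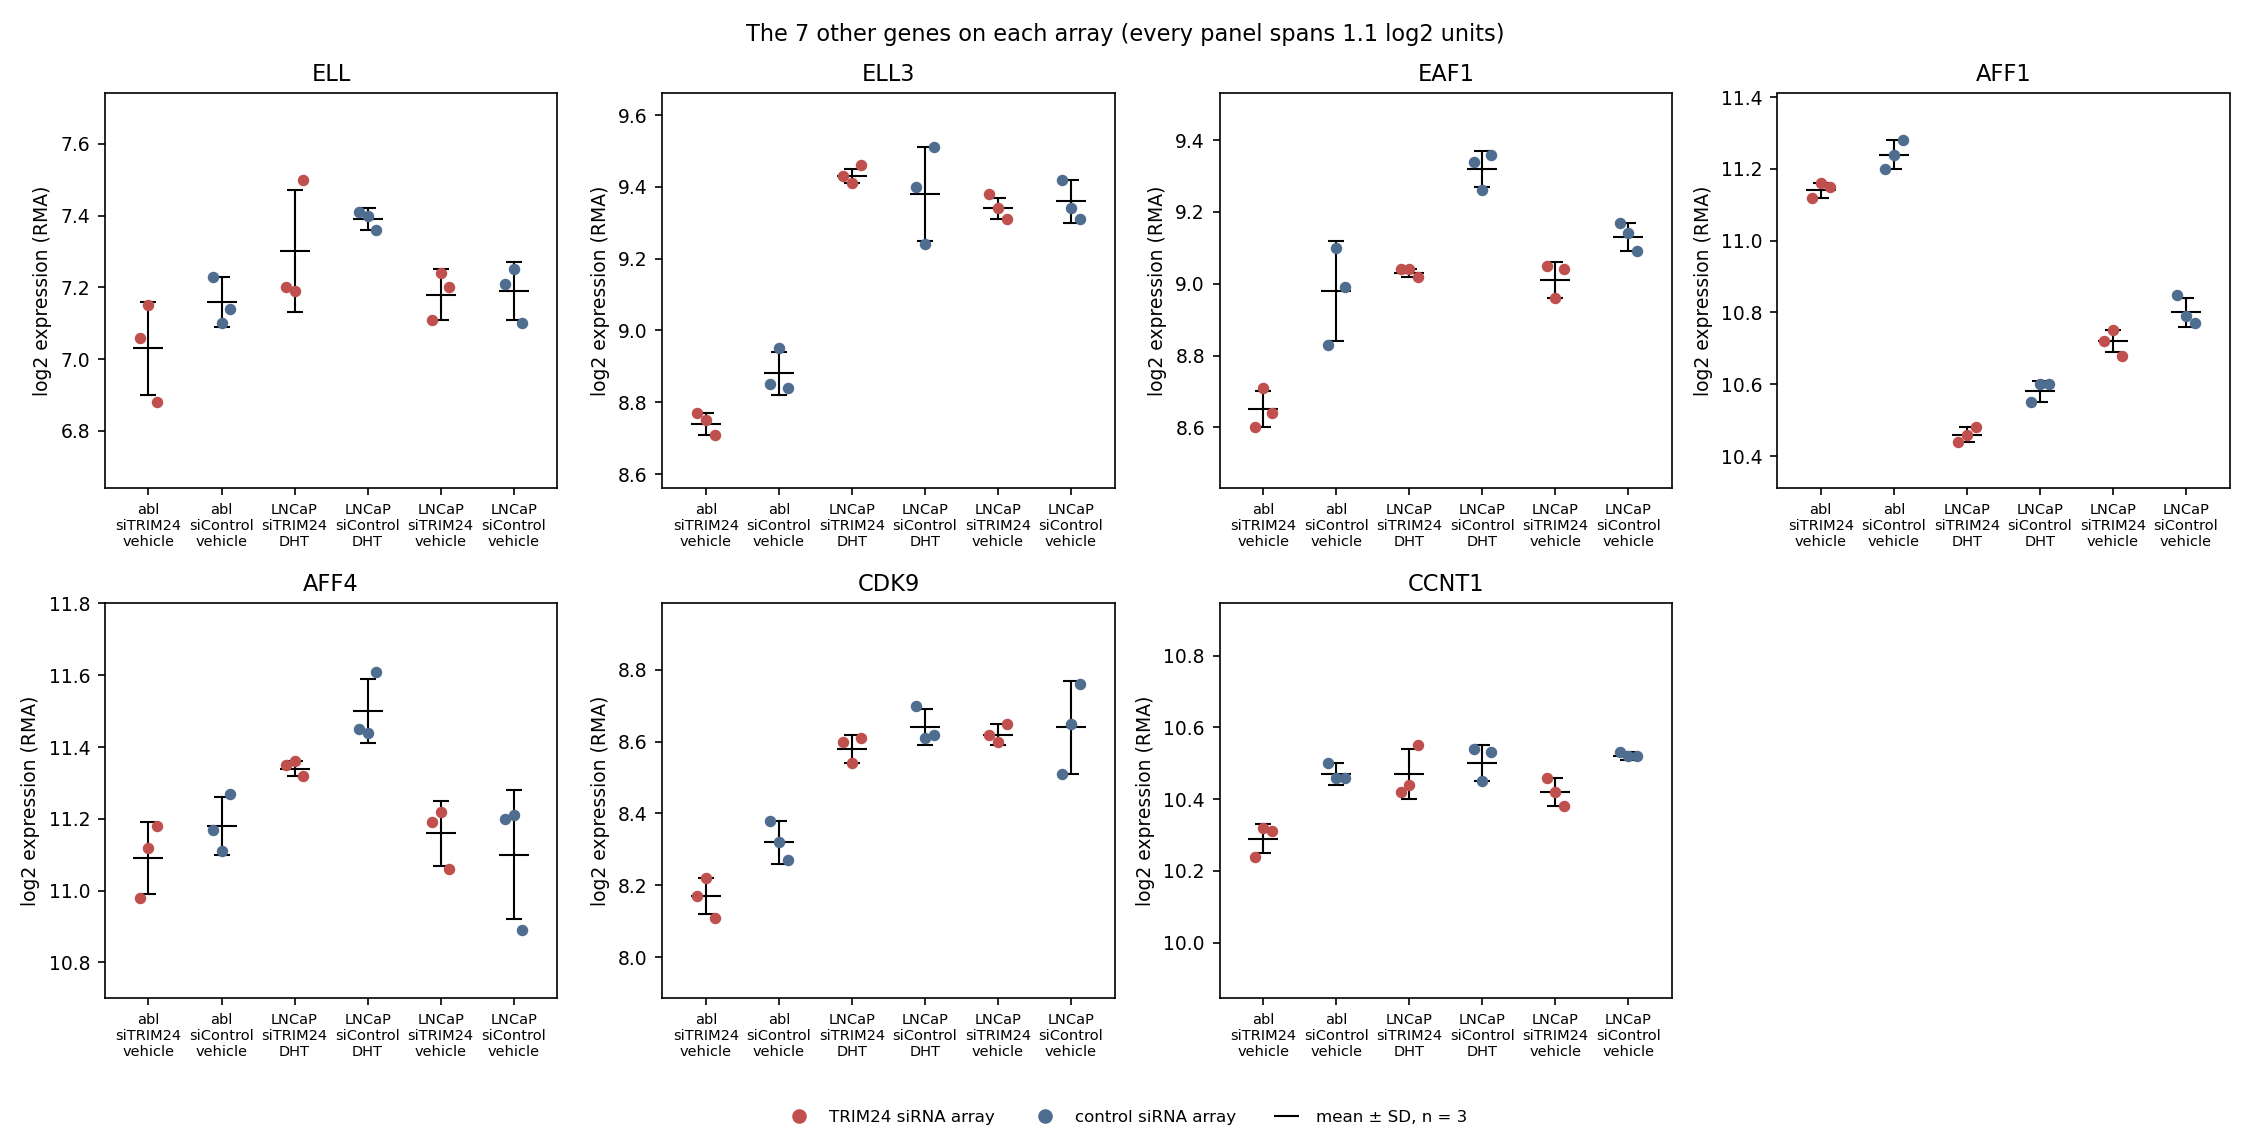
Log2 expression of ELL, ELL3, EAF1, AFF1, AFF4, CDK9 and CCNT1 on each array, by group, with points for arrays and bars for mean ± SD of 3 arrays; each panel spans the same number of log2 units. AFF1 is highest in LNCaP-abl, ELL3 and CDK9 are lowest there, and CCNT1 lies between 10.24 and 10.55 throughout.

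The scaffolds AFF1 and AFF4 moved in opposite directions with DHT. AFF1 read 10.55, 10.60 and 10.60 with DHT, against 10.85, 10.79 and 10.77 with vehicle, in LNCaP with control siRNA, a fall of 0.22 ± 0.03 (limma adjusted p = 4.89e-05), and fell by 0.26 ± 0.03 with TRIM24 siRNA. It was higher in LNCaP-abl, at 11.20, 11.24 and 11.28, against 10.85, 10.79 and 10.77 in LNCaP with vehicle, by 0.44 ± 0.03 (limma adjusted p = 6.98e-09). Its 6 groups did not overlap between neighbours, from 11.24 in LNCaP-abl with control siRNA to 10.46 in LNCaP with TRIM24 siRNA and DHT. Knockdown changes were small, at -0.08, -0.12 and -0.10 in vehicle-treated LNCaP, DHT-treated LNCaP and LNCaP-abl, each ± 0.03, of which those with DHT and in LNCaP-abl were called (limma adjusted p of 0.0082 and 0.0236). With the GAPDH covariate these were of similar size, at -0.11 and -0.09, and not called (adjusted p of 0.19 and 0.325). The first was called at -0.10 without the third control array with vehicle (adjusted p = 0.0414), and the last was lost without the second control array, the third control array or the first knockdown array of LNCaP-abl, at adjusted p-values of 0.0531, 0.104 and 0.0767. A dimmer AFF1 probe set, 211826_s_at, read 5.98 to 6.40 on all arrays and was at -0.04 ± 0.07 for DHT with control siRNA.

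AFF4 rose with DHT by its brightest probe set. It read 11.45, 11.44 and 11.61 with DHT, against 11.20, 11.21 and 10.89 with vehicle, in LNCaP with control siRNA, a rise of 0.40 ± 0.08 (limma adjusted p = 0.000627). With TRIM24 siRNA the rise of 0.18 ± 0.08 was not called (limma adjusted p = 0.0769), and without the third control array with vehicle it was (adjusted p = 0.0226). Of the 6 AFF4 probe sets that passed the filter 4 were called higher with DHT under control siRNA, between 0.30 and 0.40, and the other two were at 0.25 and 0.17. With TRIM24 siRNA 2 of the 6 were called higher with DHT, 1555436_a_at at 0.29 and 239439_at at 0.58 (limma over probe sets, adjusted p of 0.00579 and 0.00127).

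With TRIM24 siRNA the AFF4 probe sets disagreed. The brightest, 225229_at, was at 0.06, -0.16 and -0.09 in vehicle-treated LNCaP, DHT-treated LNCaP and LNCaP-abl, and none was called. Probe set 232865_at was higher in all 3, by 0.46 ± 0.10, 0.38 ± 0.10 and 0.43 ± 0.10 (limma over probe sets, adjusted p of 0.00201, 0.00689 and 0.00281). In LNCaP-abl it read 8.19, 8.41 and 8.12 with TRIM24 siRNA, against 7.65, 7.93 and 7.85 with control siRNA, without overlap. Probe set 232864_s_at gave 0.39, 0.28 and 0.52, also called each time, and 239439_at was called with DHT, at 0.39 ± 0.12 (adjusted p = 0.0216). Probe sets of a gene report different stretches of its transcripts, and which transcripts these ones detect is not given in the sources used here.

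**Figure D3:**
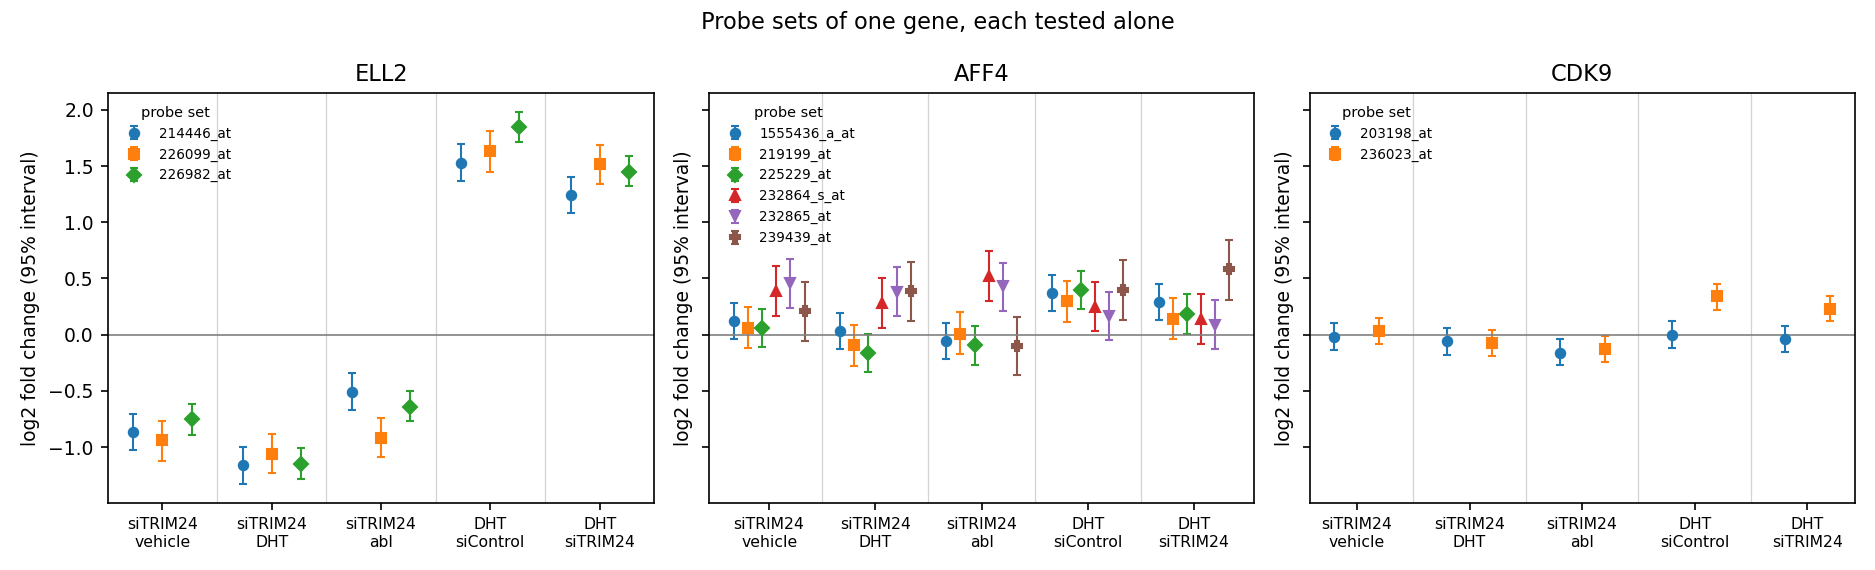
Log2 fold changes with 95% intervals for each probe set of ELL2, AFF4 and CDK9 that passed the filter, with the comparison on the horizontal axis (TRIM24 siRNA against control siRNA in 3 settings, then DHT against vehicle with each siRNA). The ELL2 probe sets share a direction in every comparison, AFF4 232864_s_at and 232865_at lie at 0.28 to 0.52 with TRIM24 siRNA, against -0.16 to 0.06 for 225229_at, and CDK9 236023_at alone rises with DHT.

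CDK9 and CCNT1, which form P-TEFb, changed little with hormone by their brightest probe sets. CDK9 read 8.70, 8.61 and 8.62 with DHT, against 8.51, 8.65 and 8.76 with vehicle, with control siRNA, and CCNT1 10.54, 10.45 and 10.53 against 10.53, 10.52 and 10.52. The DHT effects were 0.00 ± 0.05 for CDK9, with an interval of -0.11 to 0.12, and -0.02 ± 0.04 for CCNT1, with an interval of -0.10 to 0.07. A dimmer CDK9 probe set, 236023_at, did rise, at 7.43, 7.37 and 7.45 with DHT, against 7.05, 7.08 and 7.11 with vehicle, by 0.34 ± 0.05 (limma over probe sets, adjusted p = 7.2e-05). Both CDK9 probe sets were lower in LNCaP-abl than in LNCaP with vehicle, by 0.32 ± 0.05 and 0.34 ± 0.05; the brighter read 8.38, 8.32 and 8.27, against 8.51, 8.65 and 8.76.

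With TRIM24 siRNA, CDK9 and CCNT1 were called in LNCaP-abl. CCNT1 read 10.24, 10.32 and 10.31, against 10.50, 10.46 and 10.46 with control siRNA, a fall of 0.19 ± 0.04 (limma adjusted p = 0.00115) that its other probe set matched in direction at -0.26 ± 0.08 and that was -0.23 with the GAPDH covariate (adjusted p = 0.0285). CDK9 read 8.17, 8.22 and 8.11, against 8.38, 8.32 and 8.27, a fall of 0.16 ± 0.05 (limma adjusted p = 0.0274), and its dimmer probe set, at -0.13 ± 0.05, was not called (adjusted p = 0.0686). The CDK9 call was lost with the GAPDH covariate, at -0.25 (adjusted p = 0.0629), with quantile normalization, at -0.06 (adjusted p = 0.432), and with averaged probe sets, at -0.07 (adjusted p = 0.254). It was also lost without any one of 4 LNCaP-abl arrays: without the first and the second control array the adjusted p was 0.1 and 0.0588, and without the first and the third knockdown array 0.0558 and 0.106. In LNCaP with vehicle CCNT1 was at -0.10 ± 0.04 (limma adjusted p = 0.0529). It was called there, at an unchanged -0.10, without the second control array or the third knockdown array with DHT or the first knockdown array of LNCaP-abl (adjusted p of 0.0446, 0.0342 and 0.048).

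Counted together, the genes with DHT and control siRNA were 5 higher (ELL, ELL2, EAF1, EAF2 and AFF4) and 1 lower (AFF1) of 9, where 45.7% of all tested genes were called, 19.4% higher and 26.4% lower. Their median log2 fold change was 0.19, against -0.04 over all tested genes. With TRIM24 siRNA DHT raised 2 and lowered 1, where 43.5% were called, 16.9% higher and 26.6% lower, with a median of 0.09 against -0.04. Both comparisons use their own vehicle arrays.

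Knockdown lowered 6 of 9 in LNCaP-abl, 4 in LNCaP with DHT and 1 in LNCaP with vehicle and raised none, where 28.8%, 20.8% and 18% of all tested genes were called lower, 16.7%, 19.4% and 20.5% higher and 45.6%, 40.2% and 38.5% in either direction. At an unadjusted p under 0.05, limma put 7, 4 and 4 lower and likewise none higher. With averaged probe sets AFF4 was called higher in LNCaP with vehicle, at 0.18 (adjusted p = 0.0195), and with the most variable probe set in LNCaP with DHT, at 0.39 (adjusted p = 0.0201). The members' medians were -0.14, -0.12 and -0.02, against -0.01, 0.01 and 0.00 over all tested genes. In LNCaP-abl this count rests on the scaling: with each array centred on its median 7 were lower and with quantile normalization 3, while the share of higher genes among all calls moved to 26.2% and 49.2%, against 36.7% as deposited. In LNCaP with DHT and with vehicle, centring gave 4 and 1 lower and quantile normalization 4 and 3. The difference in counts between settings thus rests on the scaling too. With the GAPDH covariate ELL3, AFF1 and CDK9 in LNCaP-abl and AFF1 in LNCaP with DHT were no longer called. EAF2 was then called lower in LNCaP-abl. The fit separates this covariate poorly from the knockdown. The count in LNCaP-abl was 3 without its second control array or its first knockdown array, and in LNCaP with vehicle it was 2 without any one of 6 arrays (the third control array with vehicle, the second control array and the third knockdown array with DHT, and the first control array, the second control array and the first knockdown array of LNCaP-abl).

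LNCaP-abl with control siRNA had 4 of 9 lower (ELL2, ELL3, EAF1 and CDK9) and 1 higher (AFF1) than LNCaP with vehicle, where 63.8% of all tested genes were called, 34.6% lower and 29.1% higher. Against LNCaP with DHT 7 were lower and AFF1 higher, where 67.6% were called, 34.4% lower and 33.2% higher. The second comparison shares its LNCaP-abl arrays with the first. The ELL difference from LNCaP with DHT, -0.23 ± 0.08, was at an adjusted p of 0.0558 without the second control array of LNCaP-abl.

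The interactions called 1 member and none. For knockdown with DHT against vehicle EAF2 was called lower, where 11.1% of all tested genes were called, 5.70% lower and 5.38% higher. For knockdown in LNCaP-abl against LNCaP no member was called by limma, where 28.5% were, 19.9% lower and 8.6% higher, and 1, EAF1, had an unadjusted p under 0.05, at -0.20 ± 0.08 (adjusted p = 0.0616). Without the first control array of LNCaP-abl EAF1 was at -0.27 (adjusted p = 0.00532), and without the third control array with vehicle CDK9 was at -0.20 (adjusted p = 0.0463).

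**Figure D4:**
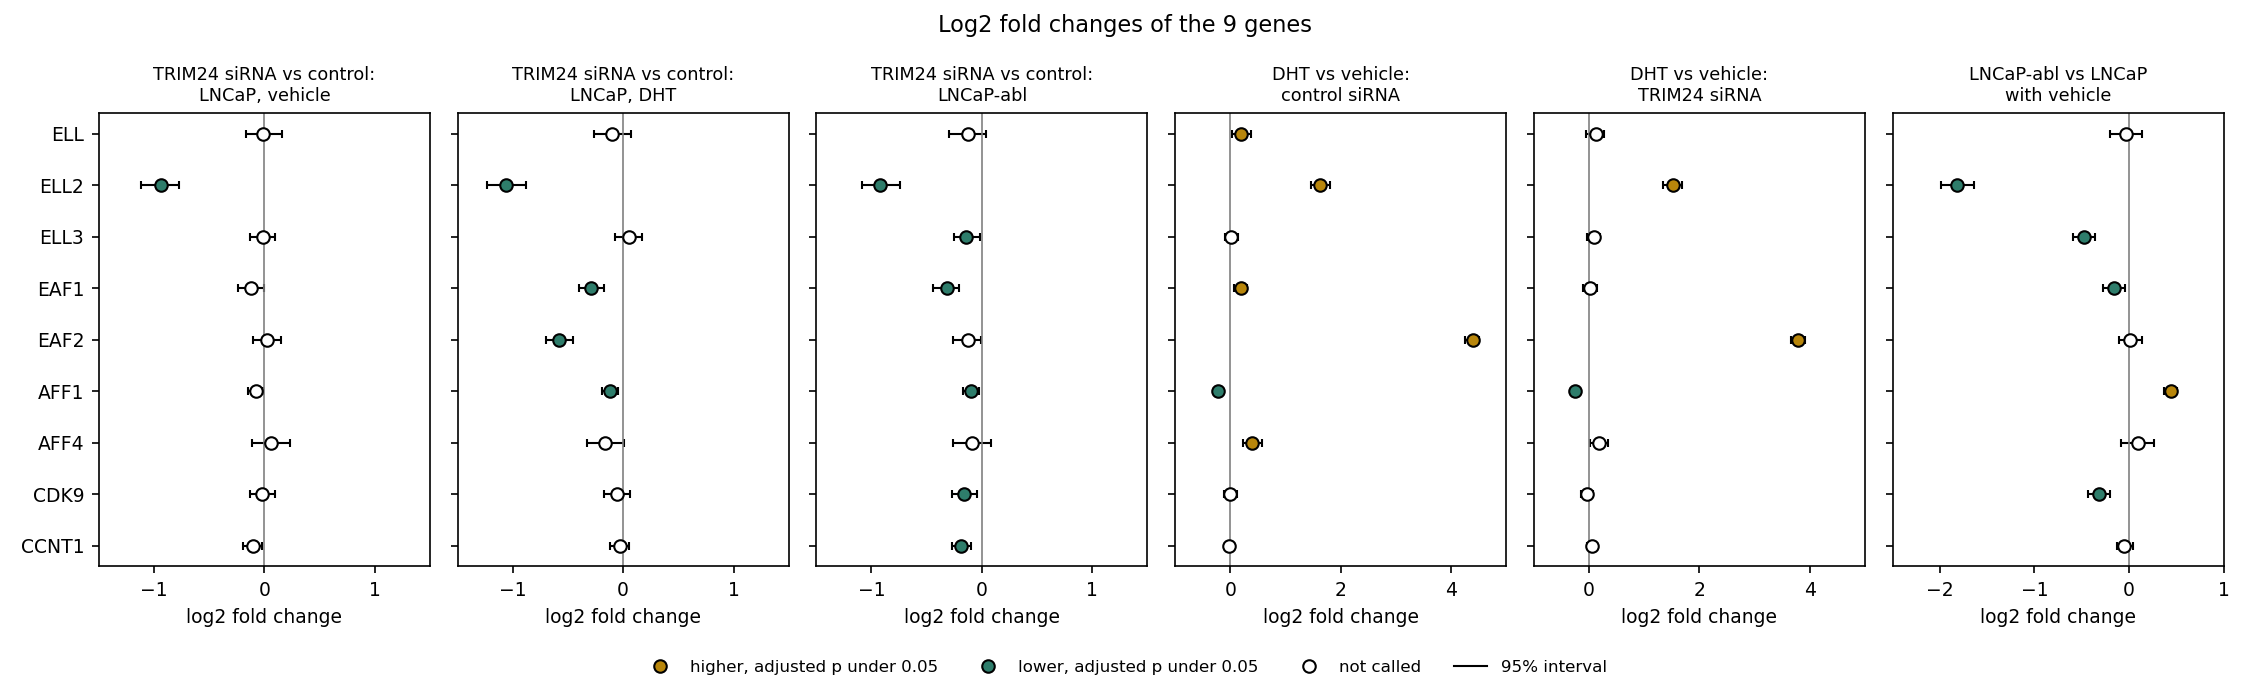
Log2 fold changes of the 9 genes in 6 comparisons, with 95% intervals; filled points passed an adjusted p of 0.05, and the horizontal scale differs between the knockdown, DHT and cell line panels. ELL2 is lower in each knockdown panel, at -0.94, -1.06 and -0.92, and EAF2 leads both DHT panels, at 4.39 and 3.78.

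The genes whose pattern over the 18 arrays was most like that of each member were taken by Pearson's r, as a description, since the arrays fall into 6 groups. For EAF2 they were LINC00844, STEAP4 and the kallikrein KLK2, at 0.998, 0.998 and 0.997. For ELL2 they were the ubiquitin ligase WWP1, the G protein subunit GNA12 and the kinase CSNK1A1, at 0.996, 0.994 and 0.991. AFF1 was most like PLS1, at 0.993, and ELL3 most like NHERF1, at 0.983. For ELL and CCNT1 the highest r were lower, at 0.883 with ZNF622 and 0.907 with NUP88. Between members, ELL2 and EAF2 correlated at 0.82 and ELL2 and AFF1 at -0.85.

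Of 36 other elongation genes listed by role, 33 were measured by a probe set of their own and tested; the rest were not used here. With DHT and control siRNA 7 were higher and 13 lower, where 19.4% of all tested genes were called higher and 26.4% lower, with a median of -0.06, against -0.04 over all tested genes. AFF3, a scaffold related to AFF1 and AFF4, was the list's largest change. It read 8.32, 8.44 and 8.47 with DHT, against 4.76, 4.84 and 4.44 with vehicle, a rise of 3.73 ± 0.09 (limma adjusted p = 7.06e-15), and 3.54 ± 0.09 with TRIM24 siRNA. All AFF3 values without DHT lie below 5.88, so it passed the filter only through its arrays with DHT. MLLT3, the chromatin-reading subunit AF9 of the super elongation complex, fell by 0.49 ± 0.06 with DHT, and HEXIM1, which holds P-TEFb inactive on the 7SK RNA, rose by 0.36 ± 0.06.

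TRIM24 siRNA lowered HEXIM1, ICE2 and CCNT2 in every setting. HEXIM1 was at -0.39 ± 0.06, -0.55 ± 0.06 and -0.42 ± 0.06 in vehicle-treated LNCaP, DHT-treated LNCaP and LNCaP-abl, and ICE2, a subunit of the little elongation complex that also contains ELL, at -0.50 ± 0.05, -0.34 ± 0.05 and -0.47 ± 0.05. With the GAPDH covariate all 6 of these values kept their direction, and ICE2 with DHT, at -0.18, was no longer called (limma adjusted p = 0.0996). CCNT2, another cyclin partner of CDK9, was at -0.21 ± 0.05, -0.33 ± 0.05 and -0.23 ± 0.05 in the same order (limma adjusted p of 0.00608, 0.000147 and 0.00272). HEXIM2, the paralog of HEXIM1, was higher in each setting, at 0.15 ± 0.05, 0.17 ± 0.05 and 0.31 ± 0.05 (limma adjusted p of 0.0375, 0.0156 and 0.000164). Of the other subunits of the little elongation complex, ZC3H8 was higher in each setting, at 0.29, 0.30 and 0.19, and ICE1 in LNCaP, at 0.23 with vehicle and 0.21 with DHT, all called. The covariate was not applied to CCNT2, HEXIM2, ZC3H8 or ICE1. AFF3 was higher with knockdown in LNCaP, by 0.59 ± 0.09 with vehicle, where both groups lay below 5.88 (means of 5.27 and 4.68), and by 0.41 ± 0.09 with DHT. Over the list 16 were higher and 5 lower in vehicle-treated LNCaP, 11 higher and 7 lower in DHT-treated LNCaP, and 7 higher and 14 lower in LNCaP-abl. Over all tested genes 20.5% were higher and 18% lower in vehicle-treated LNCaP, 19.4% and 20.8% in DHT-treated LNCaP, and 16.7% and 28.8% in LNCaP-abl. The list had medians of 0.10, 0.06 and -0.09, against 0.00, 0.01 and -0.01 over all tested genes. In LNCaP-abl 5 of the list were higher and 17 lower after centring each array on its median and 9 and 11 after quantile normalization. SSRP1, a subunit of the histone chaperone FACT, was lower in LNCaP-abl, at 9, 8.82 and 8.70 with TRIM24 siRNA, against 9.23, 9.30 and 9.31 with control siRNA.

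LNCaP-abl differed from LNCaP with vehicle in 26 of the 33, 13 higher and 13 lower, where 63.8% of all tested genes were called, 29.1% higher and 34.6% lower. The TFIIS genes, whose products restart stalled polymerase, diverged. TCEA3 read 8.31, 8.42 and 8.35 in LNCaP-abl, against 6.56, 6.34 and 6.30 in LNCaP, a difference of 1.96 ± 0.07, while TCEA2 read 7.42, 7.33 and 7.27, against 8.73, 8.65 and 8.79, a difference of -1.38 ± 0.05. AFF3 was lower by 1.22 ± 0.09, with both groups below 5.88.

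**Figure D5:**
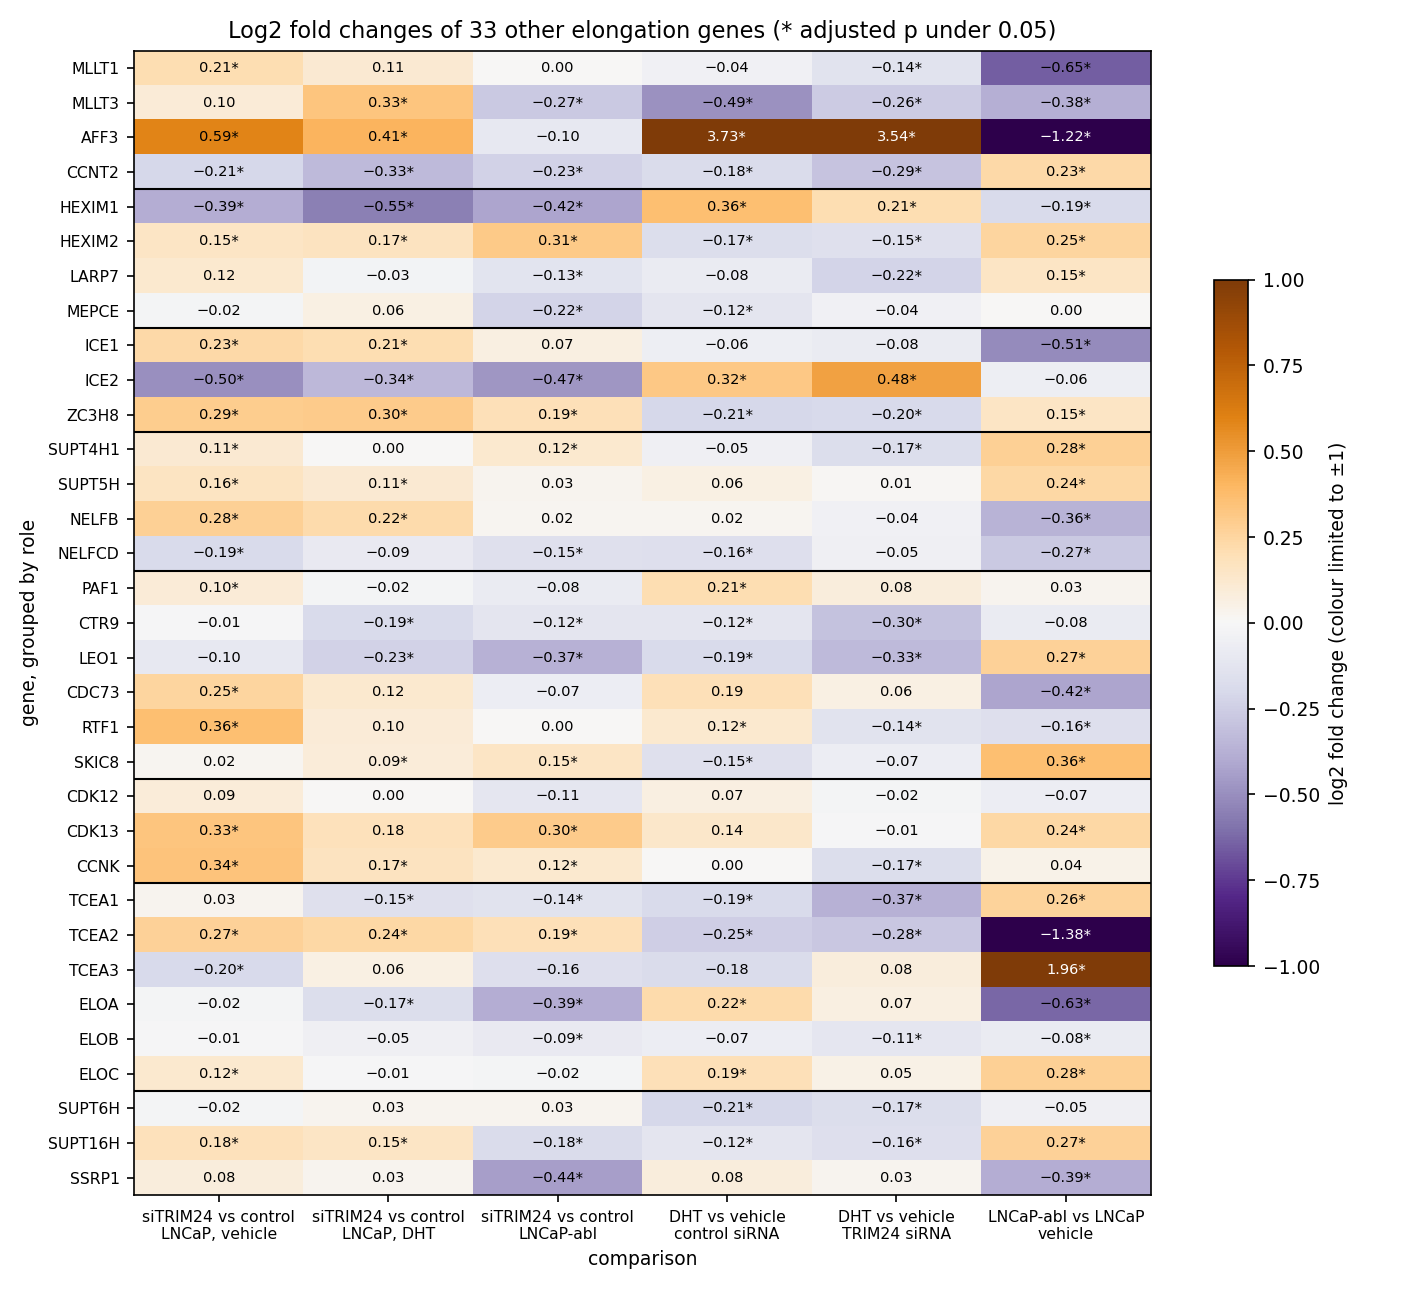
Log2 fold changes of 33 other elongation genes (rows, with lines between roles) in 6 comparisons (columns); an asterisk marks an adjusted p under 0.05 and the colour is limited to changes of 1. AFF3 stands out with DHT, at 3.73 and 3.54, and TCEA3 and TCEA2 differ in opposite directions between the cell lines, at 1.96 and -1.38.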

How the data were processed

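The data are log2 expression values of 54675 probe sets on 18 arrays, as deposited by the authors. The submitters' processing notes name RMA; its version is not given in the sources used here. RMA draws arrays to a common distribution, which hides shifts of the whole transcriptome, and compresses dim values. Values were used as deposited. Probe sets with 1 symbol in the platform's annotation (41097; several for 1801, none for 11777) were named, with the current symbol looked up by gene identifier for 41043 and the annotation's kept for the rest. Each of 19775 genes took its probe set with the highest mean, and 13607 with at least 5.88, the table's median, on at least 3 arrays were tested. A model of 6 group means was fitted with limma 3.58.1 in R 4.3.3 (12 residual degrees of freedom; median residual SD 0.0732) for 9 comparisons, each adjusted over all tested genes. Probe sets were also tested alone. The fit was tested on simulated data.

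The members, gene lists and tests were chosen with earlier results of these data known. The genes named are the 9 members, TRIM24, the 3 genes most correlated with a member (the text gives a selection), and up to 3 called genes of the elongation list per comparison with the largest change; other list genes, cell markers and probe sets were named after their values were seen. Alternatives were other low-value filters, ways to choose or average probe sets, scalings, variance models, thresholds, arrays in the fit, the replicate number as a block, a GAPDH 3' to 5' covariate and the omission of each array. Replicate numbers did not pair the arrays: deviations of same-numbered arrays correlated between -0.30 and 0.20.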

Additional observations from a re-analysis of the deposited data

Results flagged for a closer look

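EAF2 stood out because the effect of TRIM24 siRNA on it differed between hormone states: the effect with DHT minus that with vehicle was -0.60 ± 0.08 (SE, n = 3 arrays per group; limma adjusted p = 0.00027), and it kept its call in all 30 alternatives in which EAF2 was tested. With vehicle, EAF2 had means of 6.77 with TRIM24 siRNA and 6.74 with control siRNA in LNCaP, not far above the filter's 5.88. A fall could be hard to see at such low signal, and its part in the difference was not tested by these alternatives. In LNCaP the arrays with TRIM24 siRNA lay below all those with control siRNA under DHT, and overlapped them with vehicle. Of the elongation list, 2 more genes differed in this way: RTF1, a subunit tied to the PAF1 complex, at -0.26 ± 0.06 (limma adjusted p = 0.00683), and TCEA1, a TFIIS factor, at -0.18 ± 0.05 (limma adjusted p = 0.0295). As means of their probe sets they were at -0.11 and 0.00. Without any one of 6 arrays TCEA1 was no longer called, with adjusted p-values from 0.0535 without the third control array with vehicle to 0.0743 without the first knockdown array with DHT.

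Between cell lines, the knockdown effect in LNCaP-abl minus that in LNCaP with vehicle differed for AFF3, at -0.69 ± 0.12, SSRP1, at -0.52 ± 0.09, and ELOA, the largest subunit of elongin, at -0.36 ± 0.06 (limma adjusted p of 0.000628, 0.000725 and 0.000277). With other probe sets ELOA was at 0.04 (the most variable) and 0.01 (averaged). AFF3 was below 5.88 in all 4 groups of this comparison and was tested only because its arrays with DHT passed the filter.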

How the results depend on the processing

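Of the 81 values of 9 genes in 9 comparisons, 34 were called, and 26 of these kept call and direction in all of up to 31 alternatives; of 47 not called, 32 stayed so. For ELL2, each of its 7 called values kept its call in the alternatives run. The alternative fitted over all probe sets kept each gene's brightest probe set, so it was close to the main fit. No alternative took ELL2 226982_at by itself. For LNCaP-abl against LNCaP with vehicle that probe set was at -0.09 ± 0.06 and not called (limma over probe sets, adjusted p = 0.204). The number of members called, 1 for knockdown in LNCaP with vehicle, was 3 with the stricter filter, with quantile normalization and with trended, robust variances, 2 with averaged probe sets (1 of them, AFF4, higher) and 4 with array weights; it was 1 to 2 when an array was left out. For knockdown with DHT, 4 were called, and 2 with averaged probe sets. For knockdown in LNCaP-abl 6 were called, and 3 with quantile normalization or at an adjusted p under 0.01, and 3 to 7 when an array was left out. For DHT with TRIM24 siRNA 3 were called, and 5 with the most variable probe sets. For the interaction with cell line none was called, and 1 with the stricter filter, the most variable probe set, averaged probe sets, median centring, trended variances or array weights, and 0 to 1 when an array was left out. Some values turned round with other probe sets: with the most variable one, AFF4 with knockdown under DHT was at 0.39, ELL with DHT and control siRNA at -0.09, CDK9 with DHT and TRIM24 siRNA at 0.23 and ELOA in the interaction with cell line at 0.04; with averaged probe sets, AFF1 with knockdown under DHT was at 0.01, TCEA1 in the interaction with DHT at 0.00 and ELOA at 0.01. These settings read another probe set of the gene or averaged all of its probe sets, including those below the filter.

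With the GAPDH covariate 3433, 3133 and 3302 genes were called for knockdown in vehicle-treated LNCaP, DHT-treated LNCaP and LNCaP-abl, against 5236, 5468 and 6201. The cause was not tested, and the fit separates the GAPDH signal poorly from the knockdown. For the interaction with DHT 993 were called with no filter and 652 at an adjusted p under 0.01, against 1507, and for that with cell line 2216 at the stricter threshold, against 3884. With the replicate block, 5114 genes were called for knockdown in LNCaP with vehicle, against 5236, and of the members' calls ELL3 in LNCaP-abl (adjusted p = 0.0626) and ELL with DHT (adjusted p = 0.0621) were lost. Averaging its probe sets left EAF2 untested. Signal over background limits low values, among them those of EAF2 and AFF3 without DHT, of TCEA3 in LNCaP and of the dimmer probe sets.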
